A study of Mus musculus with 12 samples.

Results

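The protein disulfide isomerase family was followed through 12 RNA-seq libraries of mouse heart, as 8 of the 19246 genes in the deposited table: P4hb, Pdia3, Pdia4, Pdia5, Pdia6, Txndc5, Erp29 and Erp44. They were picked by gene symbol from a list of names that was drawn up with earlier results of these data known, and all 8 were found and passed the filter on low counts. The libraries form 4 groups of 3 from mice whose strain is given as IRC mouse: untreated controls, mice given alginate oligosaccharides (AOS) at 10 mg/kg for 5 weeks, mice given busulfan once at 40 mg/kg, and mice given busulfan once and then AOS at 10 mg/kg for 5 weeks. Libraries titled HBA0 make up the busulfan group; the series' key has no such name, and it was read as the key's B0, busulfan once. The title and extraction protocol name the heart as the source, whereas the tissue field reads only "Cells". The labels do not state age, sex or whether libraries come from separate hearts, and the p-values therefore rest on the spread among these libraries, which may be technical.

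Busulfan is an alkylating agent used to deplete blood stem cells and germ cells, and alginate oligosaccharides are short sugar chains cut from a seaweed polysaccharide. Proteins of this family carry thioredoxin-like domains and work inside the endoplasmic reticulum (ER), where they form, break and reshuffle the disulfide bonds of proteins on their way to the cell surface or out of the cell. When unfolded proteins build up there, the sensors IRE1, PERK and ATF6 raise the output of many ER chaperones and of several of these enzymes, a programme known as the unfolded protein response. Pdia3 (ERp57) acts on glycoproteins together with the lectin chaperones calreticulin and calnexin, P4hb is both the classical isomerase and a subunit of the collagen prolyl hydroxylase, Erp44 retrieves clients from the early secretory pathway, and Erp29 lacks the redox-active cysteine pair of the classical isomerases.

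Each library held between 9929772 and 13620815 estimated counts, and 14687 genes were tested in edgeR by quasi-likelihood, with p-values adjusted after Benjamini and Hochberg at a threshold of 0.05. Levels are given as FPKM, that is fragments scaled to transcript length and library total, which allows genes to be set against each other per length. Heart muscle markers were present throughout, with a summed level of 8 ventricular markers of 23749 to 63890 FPKM. The libraries differed in their share of other tissue: the summed level of 10 atrial markers ran from 527 to 8649 FPKM in controls, 323 to 15643 with AOS, 219 to 2904 with busulfan and 3582 to 15698 with busulfan and AOS. AOS replicate 2 and busulfan plus AOS replicate 1 stood apart, with the highest atrial levels, the lowest ventricular levels, and lung epithelial markers at 4682 and 1282 FPKM. In bulk tissue, a change in the number of cells of a type and a change in RNA per cell cannot be told apart.

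Pdia3 and P4hb were the most abundant members in these hearts, with medians over the 12 libraries of 110.9 and 105.0 FPKM. Pdia6 followed at 47.5 FPKM, then Erp29 at 38.2, Erp44 at 28.3, Txndc5 at 27.6, Pdia4 at 15.9 and Pdia5 at 4.40 FPKM. The order had 2 loose neighbours. Pdia3 exceeded P4hb in 5 of 12 libraries, and Erp44 exceeded Txndc5 in 5 of 12, so neither pair was separated beyond its spread. Pdia6 lay above Erp29 in 11 libraries, control replicate 2 being the exception, and the remaining 4 neighbours kept their order in all 12. Members also differed in how far they ranged: the highest library stood 3.89 times above the lowest for Pdia4, 3.20 times for Pdia5, 2.56 for Pdia3, 2.52 for Txndc5 and 2.21 for Pdia6. P4hb ranged 1.64 times, Erp44 1.48 times and Erp29 1.26 times.

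**Figure D1:**
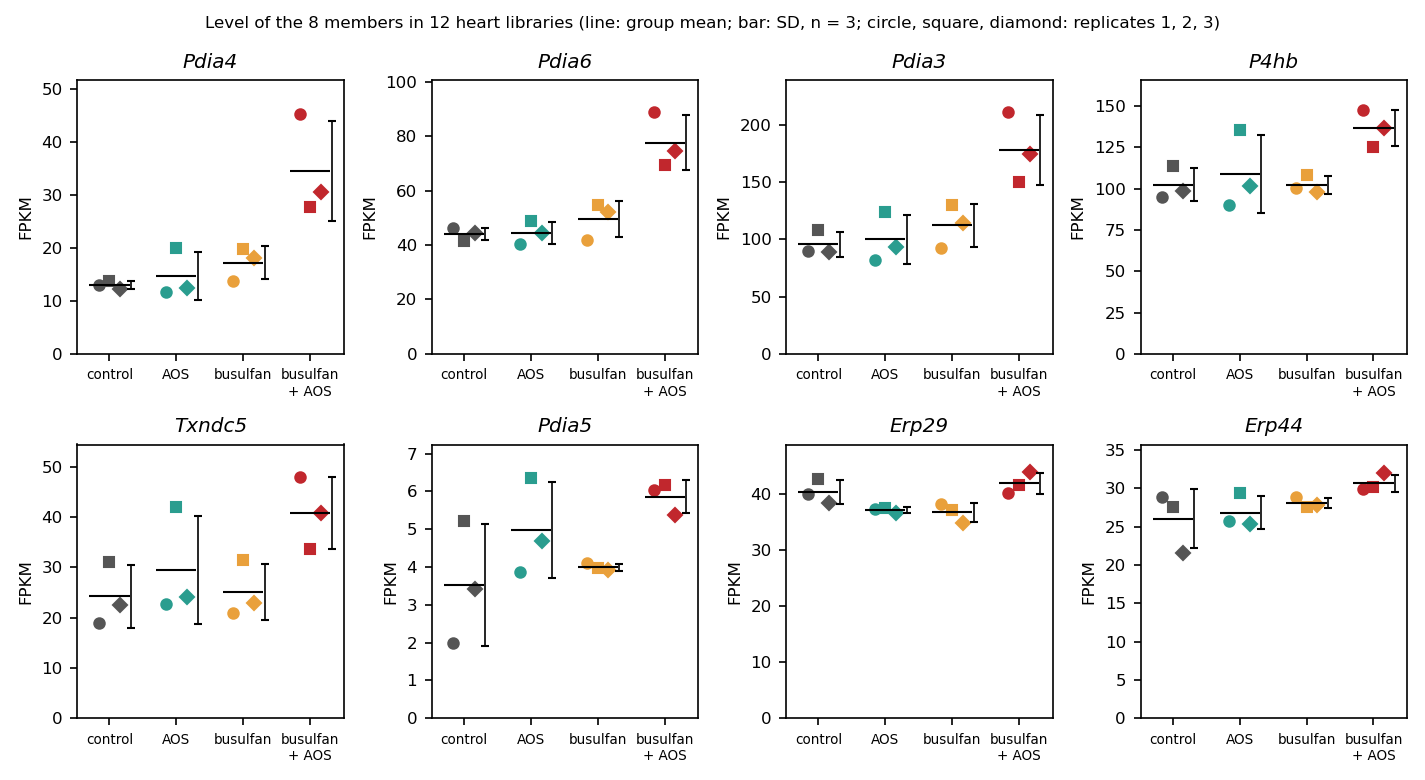
Level of each member in FPKM (vertical axes, starting at 0) in the 12 libraries, by group; lines are group means, bars the SD over 3 libraries, and the marker shape gives the replicate number. Pdia4, Pdia6 and Pdia3 were higher in all 3 libraries given busulfan and AOS than in the other 9, whereas Erp29 stayed between 34.8 and 43.9 FPKM throughout.

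The clearest pattern was a higher level of Pdia4, Pdia6 and Pdia3 in hearts given busulfan followed by AOS. Pdia4 rose against the controls by 1.21 on the log2 scale, and the fitted differences of Pdia6 and Pdia3, 0.63 and 0.71, were the next largest in the family without passing the adjusted threshold. Because the 3 genes had the largest fitted differences in the family, their RefSeq promoter sequences (assembly GRCm38.p6, 5′ to 3′ on the gene's strand, 250 bases before to 50 after the start) are shown here, with capitals marking the one ER stress response element found. The first is Pdia6 at chr12:17266339-17266638 on the plus strand, the next is Pdia4 at chr6:47813463-47813762 on the minus strand, and the last is Pdia3 at chr2:121413652-121413951 on the plus strand.
Pdia6: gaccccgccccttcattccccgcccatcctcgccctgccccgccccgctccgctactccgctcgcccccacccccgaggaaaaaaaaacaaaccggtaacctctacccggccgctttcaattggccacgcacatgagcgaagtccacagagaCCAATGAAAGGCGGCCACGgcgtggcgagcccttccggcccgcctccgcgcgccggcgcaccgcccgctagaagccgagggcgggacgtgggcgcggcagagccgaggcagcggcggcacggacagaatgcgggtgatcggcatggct
Pdia4: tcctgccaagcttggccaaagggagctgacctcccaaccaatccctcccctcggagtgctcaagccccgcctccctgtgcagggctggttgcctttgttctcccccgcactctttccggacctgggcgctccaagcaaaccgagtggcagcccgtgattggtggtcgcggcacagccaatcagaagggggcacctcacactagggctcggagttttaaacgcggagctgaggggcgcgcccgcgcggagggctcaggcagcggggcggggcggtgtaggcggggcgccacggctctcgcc
Pdia3: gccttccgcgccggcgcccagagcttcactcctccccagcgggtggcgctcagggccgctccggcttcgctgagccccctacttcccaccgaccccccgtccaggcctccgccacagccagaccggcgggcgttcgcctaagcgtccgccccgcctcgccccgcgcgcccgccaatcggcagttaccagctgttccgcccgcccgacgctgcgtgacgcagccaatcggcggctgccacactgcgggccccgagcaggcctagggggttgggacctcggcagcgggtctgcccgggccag

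The ER stress response element (ERSE) is a CCAAT box and a CCACG box with 9 bases between them, read as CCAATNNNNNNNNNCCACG. It is bound by NF-Y together with ATF6 or XBP1. Both strands were searched for it, for the related ERSE-II element ATTGGNCCACG and for the core of the unfolded protein response element, TGACGTGG. Pdia6 held the ERSE as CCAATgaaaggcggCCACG, at bases -98 to -80 from the start (chr12:17266491-17266509), and another promoter listed for Txndc5 held TGACGTGG at bases -138 to -131. Of the 7 members matched in the promoter table, these 2 held a listed element in this window. Over all 32851 promoter windows of that length, 0.119% held the ERSE, 0.0365% ERSE-II and 0.676% TGACGTGG, or 0.822% any of the 3. None of the elements was found in the windows of Pdia4 and Pdia3, which says only that these exact letters are not within these 300 bases.

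Pdia4 (ERp72; chromosome 6, 47796141 to 47813512 on GRCm38) is a multidomain isomerase of the ER lumen. Its level was 12.9, 13.8 and 12.3 FPKM in controls 1 to 3 and 11.6, 19.9 and 12.4 FPKM with AOS. With busulfan it was 13.7, 19.8 and 18.0 FPKM, and with busulfan and AOS 45.2, 27.7 and 30.6 FPKM. The lowest library given both agents lay above the highest of the other 9, and the busulfan and control groups overlapped through a single busulfan library, replicate 1. Group means were 13.0 ± 0.750 FPKM in controls, 14.7 ± 4.57 with AOS, 17.2 ± 3.12 with busulfan and 34.5 ± 9.42 with both (SD, n = 3). The fitted difference between hearts given both agents and controls was 1.21 (log2, SE 0.19), with an adjusted p of 0.0440 from edgeR, rank 21 of 14687 genes. DESeq2 gave an adjusted p of 6.91e-06. Against AOS alone the difference was 1.18 (edgeR adjusted p = 0.0620) and against busulfan alone 0.90 (edgeR adjusted p = 0.469). Busulfan alone against control differed by 0.32 and AOS alone by 0.03, neither of them called.

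Leaving out a library moved the Pdia4 difference between hearts given both agents and controls over 1.00 to 1.33, with adjusted p-values from edgeR of 0.0236 to 0.163. It passed the threshold in 2 of the 12 such fits, those without AOS replicate 2 and without busulfan replicate 1. Without both libraries that stood apart, AOS replicate 2 and busulfan plus AOS replicate 1, it was 1.01 with an adjusted p of 0.0281 from edgeR, a setting chosen after seeing the data. Without AOS replicate 2 alone, edgeR called 3 members (Pdia3, Pdia4 and Pdia6) in this comparison and 3 in the busulfan effect averaged over AOS. Calls rose over the whole table in that fit, to 2546 and 345 of 14828 genes, against 45 and 23 with all libraries.

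Pdia6 (P5; chromosome 12, 17266589 to 17284785) is an isomerase that works with the ER chaperone BiP. It measured 46.2, 41.6 and 44.4 FPKM in controls, 40.4, 48.7 and 44.3 with AOS, 41.9, 54.8 and 52.0 with busulfan, and 89.2, 69.6 and 74.5 with both. All 3 libraries given both agents were above every other library, and the other 3 groups overlapped. Means were 44.1 ± 2.30 FPKM in controls and 77.7 ± 10.2 with both (SD, n = 3), a difference of 0.63 (log2, SE 0.11) with an adjusted p of 0.0569 from edgeR and 0.000199 from DESeq2. Its difference from AOS alone was 0.74 and from busulfan alone 0.54.

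Pdia3 (chromosome 2, 121413902 to 121438687) measured 90.1, 108 and 88.5 FPKM in controls, 82.4, 124 and 93.7 with AOS, 92.3, 130 and 114 with busulfan, and 211, 150 and 174 with both. Again the lowest library given both agents, replicate 2, was above the highest of the rest, busulfan replicate 2. Means were 95.5 ± 10.8 FPKM in controls and 178 ± 30.6 with both (SD, n = 3), a difference of 0.71 (log2, SE 0.15) that did not pass in edgeR (adjusted p = 0.0732) and passed in DESeq2 (adjusted p = 0.000473). Against AOS alone it was 0.78 and against busulfan alone 0.56.

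**Figure D2:**
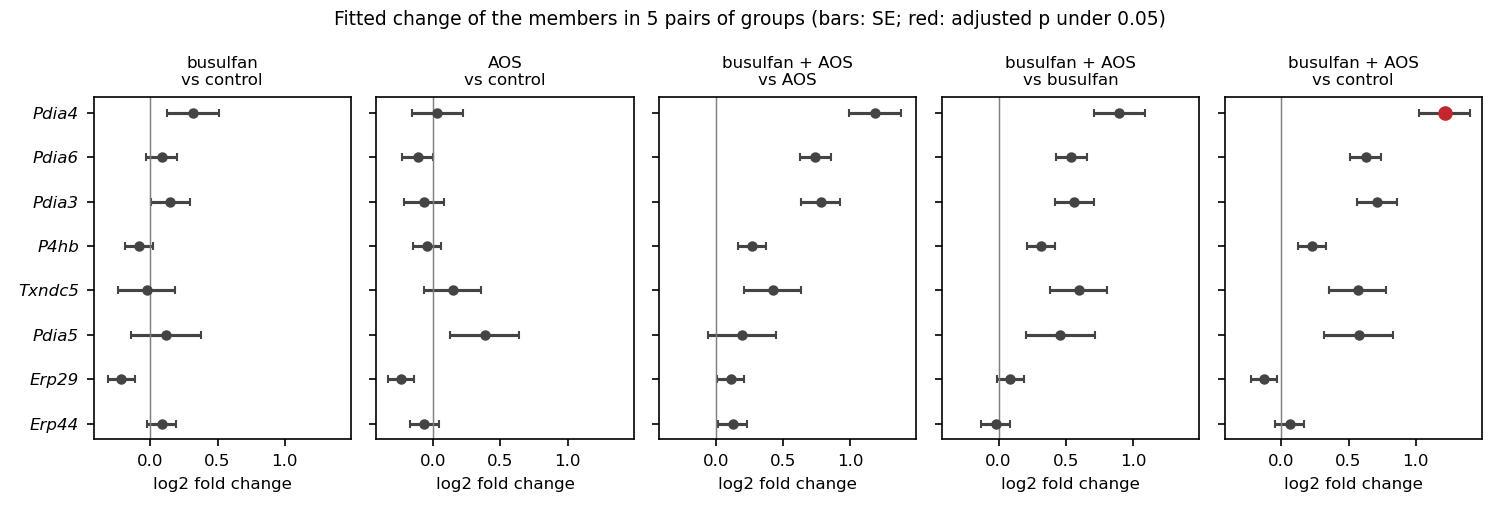
Fitted log2 fold change (horizontal axes) of the 8 members in the 5 pairwise comparisons, one panel each, with bars for the SE. The single red point, Pdia4 in busulfan plus AOS against control at 1.21, is the one value with an adjusted p under 0.05 in edgeR.

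P4hb (chromosome 11, 120560298 to 120573253) kept a narrower range. It measured 95.2, 114 and 98.6 FPKM in controls, 90.1, 135 and 102 with AOS, 100, 108 and 97.9 with busulfan, and 148, 125 and 137 with both. AOS replicate 2 lay within the range of the libraries given both agents, and controls and busulfan lay below it. The difference of hearts given both agents from controls was 0.23 (log2, SE 0.10; edgeR adjusted p = 0.156), from busulfan alone 0.31 and from AOS alone 0.27.

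The level of Pdia3 relative to P4hb in the same library differed between groups. It was 0.946, 0.950 and 0.898 in controls and 0.914, 0.916 and 0.921 with AOS, so all 6 libraries without busulfan had less Pdia3 than P4hb per length. With busulfan it was 0.922, 1.20 and 1.16, and with busulfan and AOS 1.43, 1.20 and 1.27. Thus 5 of the 6 libraries given busulfan had more Pdia3 than P4hb, busulfan replicate 1 being the exception. Relative to P4hb, mean Pdia4 was 0.127 in controls, 0.133 with AOS, 0.168 with busulfan and 0.250 with both, and mean Pdia6 was 0.434, 0.415, 0.485 and 0.568 in the same order. Erp29 went the other way, from 0.394 in controls to 0.350, 0.359 and 0.308. These ratios were formed after the levels were seen and were not tested. A ratio within a library shows unequal change and not which gene changed.

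**Figure D3:**
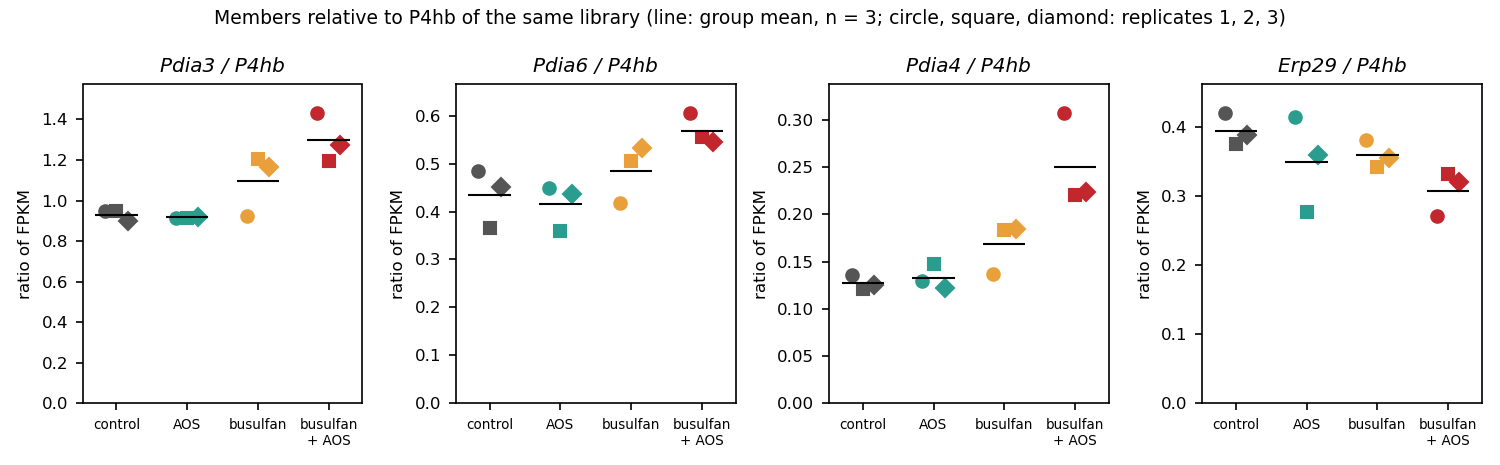
Ratio of the FPKM of Pdia3, Pdia6, Pdia4 and Erp29 to that of P4hb in the same library (vertical axes, starting at 0) by group; lines are means of 3 libraries and the marker shape gives the replicate number. Pdia3 exceeded P4hb in 5 of the 6 libraries given busulfan and in none of the others.

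Summed over the 8 members, the family reached 349 ± 29.9 FPKM in controls, 367 ± 67.7 with AOS, 375 ± 36.7 with busulfan and 547 ± 66.6 with both (SD, n = 3). The 3 libraries given both agents held 484 to 617 FPKM and the other 9 held 314 to 443, without overlap. Of single genes, 2.17% lay above all 9 other libraries in FPKM. The sum was not formed on TMM-scaled counts. When scaled to library totals, as FPKM is, the median gene was 0.23 (log2) higher with both agents than in controls, against 0.04 with TMM. The make-up of that sum also differed: the mean share of Pdia4 was 3.73% in controls and 6.24% with both, and that of Pdia3 27.3% and 32.5%. P4hb went from 29.4% to 25.1% and Erp29 from 11.6% to 7.75%.

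Txndc5 (ERp46; chromosome 13, 38500266 to 38528824) is an isomerase reported in fibroblasts and endothelium of the heart. It measured 19.0, 31.1 and 22.5 FPKM in controls, 22.6, 41.9 and 24.1 with AOS, 20.9, 31.5 and 23.0 with busulfan, and 47.9, 33.6 and 40.8 with both. Replicate 2 was the highest library of the first 3 groups, and AOS replicate 2 lay within the range of the libraries given both. The difference of hearts given both agents from controls was 0.57 (log2, SE 0.21; edgeR adjusted p = 0.109). The difference of busulfan alone from control was -0.03, but 0.05 when library totals replaced TMM scaling.

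Pdia5 (PDIR; chromosome 16, 35397308 to 35490919) was the least abundant member, with 33 to 137 counts a library. It measured 1.99, 5.21 and 3.41 FPKM in controls, 3.88, 6.36 and 4.70 with AOS, 4.10, 3.97 and 3.91 with busulfan, and 6.03, 6.18 and 5.38 with both. The controls were the most scattered group, and the highest library of all was AOS replicate 2. The difference of hearts given both agents from controls was 0.58 (log2, SE 0.26; edgeR adjusted p = 0.150).

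Erp29 (chromosome 5, 121444753 to 121452474) was the steadiest member. It measured 40.0, 42.6 and 38.3 FPKM in controls, 37.3, 37.5 and 36.5 with AOS, 38.2, 37.0 and 34.8 with busulfan, and 40.1, 41.6 and 43.9 with both. All AOS libraries and all busulfan libraries were below all controls, whereas the libraries given both overlapped the controls. The share of all genes lying below controls in this way was not counted. In the other direction, 11.8% of genes had every busulfan library above every control. The fitted differences from control were -0.24 for AOS (edgeR adjusted p = 0.642) and -0.22 for busulfan (edgeR adjusted p = 0.472). For both agents against control the difference was -0.13 with TMM scaling and 0.06 with library totals, so its direction depended on the scaling.

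Erp44 (chromosome 4, 48190711 to 48279635) measured 28.8, 27.6 and 21.6 FPKM in controls, 25.7, 29.3 and 25.4 with AOS, 28.9, 27.6 and 27.7 with busulfan, and 29.9, 30.1 and 31.9 with both. In FPKM the libraries given both were above all others, though close to AOS replicate 2. On TMM-scaled counts they were not, and their difference from busulfan alone was -0.02, against 0.09 with library totals. The difference from controls was 0.06 (log2; edgeR adjusted p = 0.704).

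Counted over the family, 1 of 8 members (Pdia4) was called higher in hearts given both agents than in controls, where 0.306% of the 14687 genes were called in either direction. Without adjustment, 5 of 8 members had a p under 0.05 and were higher, against 16.7% of all genes. The members' median difference was 0.57 (log2), beside 0.04 over all genes tested. DESeq2 called 3 members, Pdia3, Pdia4 and Pdia6, against 8.66% of genes called higher. In FPKM, 7 of 8 members, all but Erp29, had every library given both agents above every control, as did 30.5% of all genes. On TMM-scaled counts, Pdia5 and Erp44 overlapped the controls as well.

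The comparisons that share these libraries read as follows. Against busulfan alone, edgeR called 0 members and 0% of genes, with 5 members higher at an unadjusted p under 0.05 (6.07% of genes), and DESeq2 called Pdia3, Pdia4 and Pdia6 (0.278% of genes). All 8 members were above busulfan alone in every FPKM value, beside 15.3% of genes. On TMM-scaled counts Erp29 and Erp44 overlapped busulfan alone, with fitted differences of 0.09 and -0.02 (log2). Against AOS alone, edgeR called 0 members and 0.0204% of genes, with 4 members higher unadjusted (5.48% of genes), and DESeq2 called the same 3 members (0.768% of genes). There 5 members did not overlap with AOS alone in FPKM, beside 6.71% of genes, but Erp29, one of them, overlapped on TMM-scaled counts. Standing above all 9 other libraries was seen for 4 members in FPKM (Pdia3, Pdia4, Pdia6 and Erp44) and 2.17% of genes, and for 4 members on TMM-scaled CPM (counts scaled to a fixed library total; P4hb, Pdia3, Pdia4 and Pdia6) and 1.98% of genes.

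With a single agent, no member was called. For busulfan against control edgeR called 0 members and 0% of genes, with 0 members and 1558 genes at an unadjusted p under 0.05, and DESeq2 called 0 members and 50 genes. The FPKM of no member was above control without overlap, against 11.8% of genes. For AOS against control edgeR called 0 members and 0% of genes, with 1 member (Erp29, lower) and 1017 genes unadjusted, and DESeq2 called 0 members and 6 genes. The members' median difference was 0.08 for busulfan and -0.05 for AOS (log2). Single-agent values were 0.15 and -0.07 for Pdia3 (0.07 for AOS with library totals), 0.08 and -0.11 for Pdia6 (0.01 with library totals), and 0.12 and 0.38 for Pdia5, busulfan first.

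Averaged over both AOS states, the busulfan effect was 0.75 ± 0.13 for Pdia4, 0.46 ± 0.10 for Pdia3 and 0.41 ± 0.08 for Pdia6 (log2 ± SE), with adjusted p-values of 0.0616, 0.0998 and 0.0734 from edgeR. That is 0 members called, beside 0.157% of genes, and 3 members higher without adjustment, beside 10.3% of genes. DESeq2 called these 3 (3.08% of genes). The AOS effect averaged over busulfan was highest for Pdia4, 0.46, followed by Pdia5 at 0.42 and Txndc5 at 0.37. With atrial markers in the model, of which 9 of 10 had a higher mean with AOS, these became 0.26, 0.24 and 0.10. Without that covariate edgeR called 0 members and 0% of genes, with 5 members (9.65% of genes) higher unadjusted and 2547 genes in either direction, and DESeq2 called 0 members and 100 genes.

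Whether AOS acted differently with and without busulfan was tested as the interaction of the 2 agents. It was 0.86 for Pdia4, 0.66 for Pdia6, 0.63 for Pdia3, 0.36 for P4hb and 0.33 for Erp29 (log2), each with an unadjusted p under 0.05, that is 5 members beside 1.44% of genes. Pdia6 had the smallest p of them, 0.00195 in edgeR, rank 9 of 14687 genes. After adjustment edgeR gave 1.00 for all 8, calling 0 members and 0% of genes, with 432 genes unadjusted, and DESeq2 called 0 members and 5 genes. A difference in the AOS effect between mice with and without busulfan was therefore not shown for any member.

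Tissue composition moved with the group given both agents. Of the atrial markers, 9 of 10 had a higher mean than in controls, as did 10 of 10 adipocyte, 8 of 8 fibroblast, 8 of 8 macrophage, 6 of 6 B and plasma cell, 5 of 5 mesothelial, 5 of 5 hepatocyte and 4 of 6 lung epithelial markers, whereas 0 of 8 ventricular markers did. In summed FPKM, macrophage markers ran from 307 to 360 in controls and 645 to 833 with both agents, fibroblast markers from 740 to 1139 and 1235 to 1687, adipocyte markers from 948 to 1199 and 1736 to 3043, and B and plasma cell markers from 3.49 to 5.28 and 6.70 to 16.4. The sum understates the adipocyte difference, whose median over the 10 markers was 4.39 (log2). Their mean log2 CPM ran from 0.995 to 3.29 in controls and 5.41 to 6.81 with both agents. Secretory cells are rich in this family, and the part of these cells in the members' differences was not tested.

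Adding the mean level of a marker list to the model lowered the Pdia4 difference between hearts given both agents and controls and ended its call. It was 0.96 (edgeR adjusted p = 0.105) with atrial, 0.88 (0.218) with fibroblast and 0.74 (0.594) with adipocyte markers in the model. Pdia6 moved less, from 0.63 to 0.59, 0.62 and 0.51, and Pdia3 went from 0.71 to 0.51, 0.47 and 0.33. Txndc5 went from 0.57 to 0.24 with atrial and -0.03 with adipocyte markers. Against busulfan alone, the atrial covariate took Pdia4 from 0.90 to 0.58, Pdia3 from 0.56 to 0.31, Txndc5 from 0.60 to 0.16 and Pdia6 from 0.54 to 0.50. For the busulfan effect averaged over AOS, atrial markers in the model led to calls of Pdia4, Pdia3 and Pdia6, at edgeR adjusted p-values of 0.0126, 0.0181 and 0.0372. The estimates themselves fell slightly, to 0.70, 0.42 and 0.40, and calls over all genes rose from 23 to 354. With adipocyte markers no member was called for this effect. Leave-outs aside, the lowest values over 11 other settings were 0.474 for Pdia4 and 0.235 for Pdia3.

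**Figure D4:**
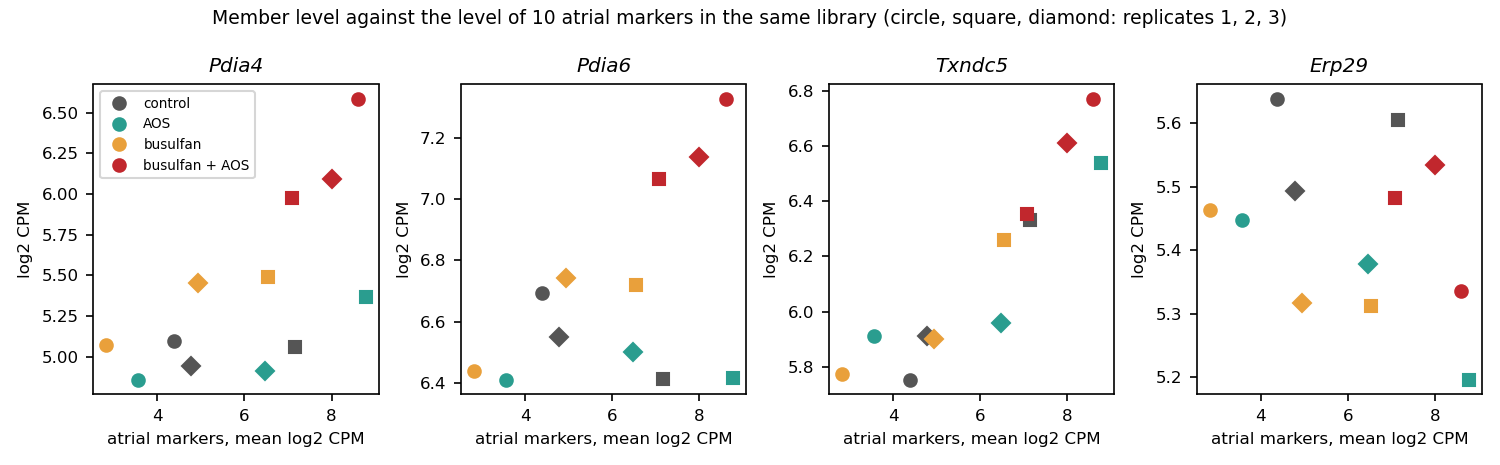
Log2 CPM (TMM-scaled) of Pdia4, Pdia6, Txndc5 and Erp29 in each library (vertical axes, not starting at 0) against the mean log2 level of 10 atrial markers; colours are groups and marker shapes replicates. At the highest atrial level, 8.78 in AOS replicate 2, Pdia4 and Pdia6 lay below the libraries given both agents, whereas Txndc5 lay among them.

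Genes that work with the family were followed as 6 lists, chosen with earlier results of these data known. Of 12 ER chaperones beside the family, 3 rose in hearts given both agents against controls: Hyou1, a large Hsp70-type chaperone, by 1.06 (edgeR adjusted p = 0.0139), Sdf2l1, a partner of BiP, by 2.18 (0.0200), and Manf, an ER-resident stress-induced protein, by 1.05 (0.0479). Sdf2l1 went from 2.82 ± 0.715 FPKM in controls to 5.53 ± 1.79 with busulfan and 14.6 ± 4.26 with both (SD, n = 3), and Hyou1 from 10.5 ± 0.945 to 15.5 ± 1.97 and 24.9 ± 5.76. The list's median was 0.42, and Hspa5 (BiP), at 0.53, and Hsp90b1 (GRP94), at 0.54, did not pass (edgeR adjusted p = 0.101 and 0.0736). Hyou1 and Sdf2l1 were also called for the busulfan effect averaged over AOS, at 0.71 and 1.38.

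Among 12 sensors and transcription factors of the unfolded protein response, Xbp1, the factor spliced by IRE1, was called: 27.9 ± 1.94 FPKM in controls, 32.3 ± 7.84 with AOS, 36.8 ± 5.47 with busulfan and 55.6 ± 8.45 with both (SD, n = 3), a rise of 0.85 (log2; edgeR adjusted p = 0.0462). These gene totals do not separate spliced from unspliced Xbp1. Ddit3 (CHOP) at 0.79, Creb3l1 at 0.89 and Eif2ak3 (PERK) at 0.44 were not called by edgeR, and the list's median was 0.19. DESeq2 called Ddit3 and Creb3l1 (adjusted p = 0.000959 and 0.0389), beside 8.66% of genes called higher. Among 8 tested lectin chaperones and members of the peptide loading complex, which work with Pdia3, Calr (calreticulin) rose by 0.66 (edgeR adjusted p = 0.0480), from 170 ± 8.06 to 304 ± 32.9 FPKM (SD, n = 3). B2m at 1.26, Tapbpl at 0.95 and Uggt1 at 0.49 were not called by edgeR, and the median of this list was 0.57. DESeq2 called B2m, Tapbpl and Uggt1 (adjusted p = 0.00357, 0.0368 and 0.00604).

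Of 6 tested genes for collagen hydroxylases and other P4hb partners, P4ha1, the catalytic subunit that pairs with P4hb, rose by 1.22 (edgeR adjusted p = 0.0479). Its level was 25.5 ± 2.71 FPKM in controls, 25.4 ± 5.84 with AOS, 40.4 ± 8.31 with busulfan and 69.3 ± 18.2 with both (SD, n = 3), and it was also called for the busulfan effect averaged over AOS, at 0.98 (edgeR adjusted p = 0.0395). The second catalytic subunit, P4ha2, stood at -0.23 and was not called, while P4hb itself differed by 0.23. Plod2 at 0.32 and Plod3 at 0.49, the lysyl hydroxylases, were not called by edgeR. DESeq2 called Plod3 (adjusted p = 0.00396), beside 8.66% of genes called higher.

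None of 11 genes for oxidation and reduction of the family was called by edgeR against controls. At an unadjusted edgeR p under 0.05, 3 were higher, beside 16.7% of all genes. Ero1lb, an oxidase that recharges these enzymes, was at 0.80, Gpx7 at 0.66, Vkorc1 at 0.56 and Qsox1 at 0.38, and the list's median was 0.31. None of 10 further tested family members was called by edgeR either (2 higher unadjusted, beside the same 16.7% of genes, and 1 lower). Creld2 was the nearest, at 1.05 (edgeR adjusted p = 0.0530), with 10.0 ± 0.942 FPKM in controls and 23.7 ± 7.50 with both (SD, n = 3), and Tmx2, a membrane-bound member, lay at -0.50. Against controls, DESeq2 called Ero1lb, Creld2 and Txndc11 higher (adjusted p = 0.0453, 0.000375 and 0.00366), beside 8.66% of genes. Txndc11 was called for the busulfan effect averaged over AOS, at 0.47 (edgeR adjusted p = 0.0426). With all libraries, edgeR called no gene of the 6 lists lower in hearts given both agents than in controls. Tmx2 was called lower by DESeq2, at -0.51 (adjusted p = 0.0352). It was also called lower by edgeR without AOS replicate 2, at -0.50 (adjusted p = 0.0299). The 6 calls among the 59 partner genes tested were as fragile as that of Pdia4: with 1 library left out there were 0 to 3, except 18 without AOS replicate 2. They were 5 without both libraries that stood apart, and 20 with DESeq2. As for Pdia4, marker levels in the model ended most of them: 2 were left with atrial markers and 0 with adipocyte or fibroblast markers. There were 2 with a replicate block, 2 without the filter on low counts and 3 with median-ratio size factors. Over all genes, calls in this comparison also moved, from 45 with all libraries in edgeR. They were 2546 without AOS replicate 2, 147 without both libraries that stood apart and 2353 with DESeq2. In the other direction, they were 0 without control replicate 1, 0 without busulfan plus AOS replicate 1 and 1 without control replicate 2. With the adipocyte or the fibroblast covariate they were also 0. The 4 calls for the busulfan effect averaged over AOS (Hyou1, Sdf2l1, P4ha1 and Txndc11) became 0 to 1 without 1 library, except 8 without AOS replicate 2 and 6 without busulfan replicate 1, and 14 with DESeq2. They became 0 with library totals, a replicate block, the adipocyte covariate and both limma fits of log2 FPKM, and 9 with the atrial covariate. Over all genes, calls for this effect went from 23 to 345 without AOS replicate 2, 47 without busulfan replicate 1 and 1 without control replicate 1. DESeq2 called 569 genes, and the atrial covariate gave 354.

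**Figure D5:**
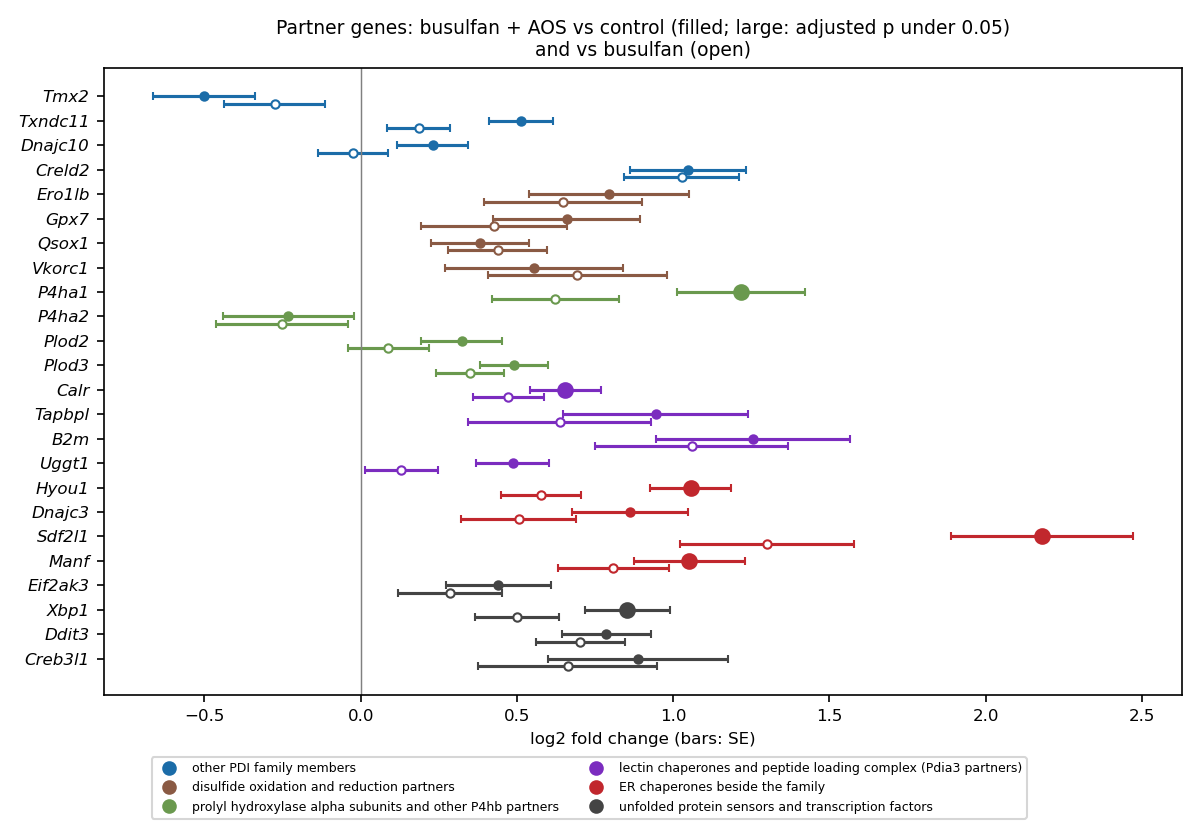
Fitted log2 fold change with SE (horizontal axis) of the 4 genes of smallest p in each of 6 partner lists, in busulfan plus AOS against control (filled) and against busulfan (open); colours are lists. The 6 large filled points, among them Sdf2l1 at 2.18 and P4ha1 at 1.22, had an adjusted p under 0.05 in edgeR.

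Of the genes plotted from these lists, the 4 of smallest p in each, 19 had a promoter in the RefSeq table, and 5 held one of the elements that Pdia6 and Txndc5 hold. The ERSE was found for Calr, Creld2, Dnajc3 and Ero1lb, and TGACGTGG for Txndc11. The genes had been picked by their p-value in these data, so the share is a description.

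Across the 12 libraries, Pdia3 and Pdia4 were the most alike pair of members, with Pearson's r of 0.981 on log2 CPM and 0.912 after each group's mean was taken out. Pdia4 and Pdia6 had an r of 0.937, and 0.619 within groups. Pdia4 and Erp29 had -0.211, and -0.803 within groups. Outside the family, among 8357 named genes with a mean of at least 5 FPKM, the gene most like Pdia4 was Xbp1 (r = 0.984), followed by Sdf2l1 (0.966). Pdia3 was most like Xbp1 (0.973) and Manf (0.970), and Pdia6 most like Calr (0.965) and Hsp90b1 (0.962). P4hb was most like Ddost (0.957), a subunit of the oligosaccharyltransferase, and Copg1 (0.954), a coat protein of Golgi vesicles. Txndc5 was closest to Igfbp6 (0.976) and Eef1a1 (0.975), and Pdia5 to the liver genes Ahsg (0.914) and Cyp2e1 (0.887). Erp29 was closest to Ctdnep1 (0.931) and Tbcb (0.928), and Erp44 to Bag5 (0.911) and Ei24 (0.904). These are descriptions, since the points share libraries, groups and tissue make-up, and the hepatocyte markers were highest, at 1204 FPKM, in busulfan plus AOS replicate 2.

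Several members share exon sequence with a neighbour in the GENCODE annotation, and the labels do not state whether counting used strand. Pdia3 overlaps Catsper2 (2.02 to 2.53 FPKM), Pdia6 overlaps Atp6v1c2 (0 to 1.58 FPKM), Txndc5 overlaps Bmp6 (8.98 to 14.1 FPKM), and Erp29 overlaps Naa25 (6.73 to 10.3 FPKM) and Tmem116 (1.62 to 2.97 FPKM). Pdia4 also overlaps Mir704, and Txndc5 also overlaps Gm31834, neither of which has a value in these data. Counts were fractional for Pdia3 in all 12 libraries and for Erp29 in 11, and whole for the other 6 members. Those 6 include Pdia4, Pdia6 and Txndc5, which overlap neighbours too, and where the fractions came from was not tested.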

How the data were processed

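Heart RNA of 12 libraries was measured by RNA sequencing, and the authors deposited for each gene an estimated count and an expression value. Per the submitters' processing notes, reads were placed on mm10; the aligner, counter and annotation used are not stated there or in the labels. Expression values as deposited carry no unit name in the file headers and were taken as FPKM, since the gene length they imply varied by a median of 0.457% between libraries. In a library, 19.7% to 22.8% of the deposited estimated counts were fractional (more than 0.005 from a whole number). They were rounded, which moved a library total by at most 18.1 counts.

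All 12 libraries were fitted together with edgeR 4.0.16 in R 4.3.3 (TMM scaling, filterByExpr, quasi-likelihood test), with Benjamini-Hochberg adjustment over 14687 genes and a threshold of 0.05. Busulfan and AOS main effects and their interaction were contrasts of the same fit. The members had biological coefficients of variation of 11.4% (Erp29) to 22.9% (Pdia5). Alternatives were median-ratio size factors, library totals, no filter, only the groups compared, a replicate block, marker lists as covariates, limma 3.58.1 (voom with library weights, and log2 of FPKM plus 1 or 0.1), DESeq2 1.42.0 and leaving out each library. On data simulated from the busulfan plus AOS and control means, edgeR recovered 41% of 2-fold changes (195 changed genes among 14477), with 3 false calls. It recovered 0% of 1.5-fold changes (198 changed genes among 14470), with 0 false calls.

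The 8 members, the partner lists and the marker lists were chosen with earlier results of these data known. The text names all members, of each partner list up to 4 genes with the smallest p in busulfan plus AOS against control, and for each member the 2 most similar genes. Genes named beside that rule (Hspa5 and Hsp90b1) were chosen after their values were seen. Promoter sequences are from RefSeq.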

Additional observations from a re-analysis of the deposited data

Results flagged for a closer look

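The AOS effect on Erp29 pointed in opposite directions without and with busulfan. In FPKM, all 3 AOS libraries (36.5 to 37.5) were below all 3 controls (38.3 to 42.6), and the share of all genes doing so was not counted. All 3 libraries given busulfan and AOS (40.1 to 43.9) were above all 3 given busulfan (34.8 to 38.2), as were 15.3% of all genes. On TMM-scaled CPM the latter groups overlapped, at 40.2 to 46.2 with both agents and 39.6 to 43.9 with busulfan, and the fitted difference was 0.09 (log2; edgeR adjusted p = 0.674). The interaction was 0.33 (log2, SE 0.14) with a p of 0.0397 from edgeR and an adjusted p of 1.00, so the difference did not pass the correction.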

How the results depend on the processing

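In busulfan plus AOS against control, where 1 member was called, edgeR called 2 with library totals and with only the groups compared, and 0 with atrial, adipocyte or fibroblast markers as a covariate. On log2 FPKM with a pseudocount of 1, limma called 2, with a pseudocount of 0.1 it called 0, and voom with library weights and DESeq2 each called 3. Leaving out 1 library gave 0 to 3 calls, with 3 without AOS replicate 2. Against AOS alone, where 0 were called, voom and DESeq2 called 3, and against busulfan alone DESeq2 called 3. For the busulfan main effect, where 0 were called, the atrial covariate, voom and DESeq2 gave 3, the fibroblast covariate 1, and leaving out 1 library 0 to 3. Without AOS replicate 2 and busulfan plus AOS replicate 1, chosen after seeing the data, it was 1. The cause of these shifts was not tested. Over all genes, the 45 calls in busulfan plus AOS against control ranged from 0 to 2546 (without AOS replicate 2). They were 0 with the adipocyte or fibroblast covariate, and without control replicate 1 or busulfan plus AOS replicate 1. The 23 of the busulfan main effect ranged from 1 to 818, and the 3 against AOS from 0 to 286. The 0 calls of busulfan against control became 116 with the atrial covariate and 50 with DESeq2.

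Directions turned for uncalled differences only, and the causes were not tested. Most were small, but with the adipocyte covariate Txndc5 (0.57) and Vkorc1 (0.56) in both agents against control turned as well. Library totals moved the median gene by 0.23 in busulfan plus AOS against control (0.04 with TMM). With library totals, then limma at pseudocounts of 1 and 0.1, the log2 differences that turned were, for AOS against control, P4hb 0.088, 0.071 and 0.072, Pdia3 0.065, 0.05 and 0.05, Pdia6 0.012, 0.01 and 0.01, and Erp44 0.062, 0.05 and 0.052. Txndc5 in busulfan against control became 0.051, 0.058 and 0.06, and Erp44 in busulfan plus AOS against busulfan 0.09, 0.123 and 0.126. Erp29 turned against control to 0.061, 0.054 and 0.055 with both agents, in the busulfan main effect to 0.023, 0.018 and 0.018, and in the AOS main effect to 0.038, 0.035 and 0.036, where Erp44 turned to 0.076, 0.086 and 0.089.

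With the atrial covariate, Txndc5 in busulfan against control became 0.072, Pdia4 in AOS against control -0.071, Erp44 against busulfan 0.031, the Pdia5 interaction -0.149 and P4ha2 in busulfan plus AOS against control 0.142. With the adipocyte covariate, busulfan against control gave -0.095 for Pdia3 and -0.041 for Pdia5, AOS against control -0.188 for Pdia4 and -0.128 for Txndc5, and Erp44 against busulfan 0.015. Both agents against control then gave -0.033 for Txndc5, 0.035 for Erp29, 0.389 for P4ha2 and -0.152 for Vkorc1, and the busulfan main effect 0.044 for Erp29, -0.002 for Pdia5 and -0.152 for Txndc5. With the fibroblast covariate, AOS against control gave -0.166 for Pdia4 and -0.119 for Txndc5, Erp44 against busulfan 0.033, the AOS main effect 0 for Erp29 and 0.006 for Erp44, the Pdia5 interaction -0.007 (-0.014 with limma at 0.1) and P4ha2 against control 0.259. In AOS against control, Pdia4 and Txndc5 were -0.115 and -0.029 with voom, and -0.151 and -0.086 without both libraries that stood apart.

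Leaving out 1 library, or both libraries that stood apart, turned Erp44 in the AOS main effect (-0.099 to 0.011), AOS against control (-0.172 to 0.049), the interaction (-0.075 to 0.146), busulfan against control (-0.021 to 0.201), and both agents against busulfan (-0.081 to 0.007) and control (-0.047 to 0.174). AOS against control spanned 0 for P4hb (-0.135 to 0.025), Pdia3 (-0.157 to 0.004), Pdia4 (-0.151 to 0.119) and Txndc5 (-0.086 to 0.328), busulfan against control for Pdia5 (-0.133 to 0.483) and Txndc5 (-0.18 to 0.159), and the interaction for Pdia5 (-0.29 to 0.326).

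Whether the replicate numbers pair the libraries was not settled: of 18 same-numbered pairs, 6 had a correlation of deviations over 0.1 (-0.452 to 0.554). Between control, AOS and busulfan, same-numbered pairs of replicates 1 and 2 were all positive (0.23 to 0.554). Replicate 1 of one of these groups against replicate 2 of another was always negative (-0.536 to -0.232). Same-numbered pairs that included busulfan plus AOS ran from -0.452 to 0.097. With the number as a replicate block, 0 members were called in busulfan plus AOS against control, and Pdia4 was at 1.22 (edgeR adjusted p = 0.0622). Pdia5 had the fewest counts, 33 to 137 a library, and also the highest biological coefficient of variation, 22.9%.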
